A study of Mus musculus with 24 samples.

Results

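The genes followed here are 9 Toll-like receptor genes and *Unc93b1*. They were taken by gene name, *Tlr1*, *Tlr2*, *Tlr4*, *Tlr5*, *Tlr6*, *Tlr7*, *Tlr8*, *Tlr9*, *Tlr13* and *Unc93b1*, from a table of 53715 genes, and all 10 reached the minimum of 50 normalized reads in at least 1 library that was set for testing, as did 11230 genes in all. RNA-sequencing was performed on Ly6Chi and Ly6Clo cells sorted from the peripheral blood of C57BL/6 mice 8 to 10 weeks old, in 6 groups of 4 libraries. The groups were Ly6Chi cells of wt and N2ΔMy mice after Sham treatment, Ly6Chi cells of both genotypes after imiquimod (IMQ) treatment, and Ly6Clo cells of both genotypes after IMQ treatment. Aldara cream, which holds 5% IMQ, was put on depilated skin of the IMQ mice at 50 mg daily and Vaseline on that of the Sham mice, before the sort on day 5. In N2ΔMy mice, Cre inserted in the *Lyz2* locus, which is active in myeloid cells, deletes floxed *Notch2*. Cells of all groups were sorted as GFP+ and so carried the *Cx3cr1* GFP reporter allele, and wt mice were littermates. No Ly6Clo library came from a Sham-treated mouse, so the response of Ly6Clo cells to IMQ was not measured.

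Toll-like receptors are membrane proteins that bind microbial molecules or nucleic acids and signal through adaptors with a TIR domain, mainly MyD88. TLR2, which pairs with TLR1 or TLR6, TLR4 and TLR5 sit at the cell surface and bind lipoproteins, lipopolysaccharide and flagellin. TLR7, TLR8, TLR9 and TLR13 sit in endosomes, where TLR7 and TLR8 bind RNA, TLR9 binds DNA with unmethylated CpG, and TLR13 binds bacterial ribosomal RNA. UNC93B1 is the membrane protein that carries the endosomal receptors, and also TLR5, out of the endoplasmic reticulum. Imiquimod is an agonist of TLR7, and monocytes are among the cells in which TLR7 is known to act.

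The genes lie apart in the genome except for a pair of neighbours on each of chromosomes 5 and X. In GRCm38 *Tlr2* is at chr3:83836272-83841767, *Tlr1* at chr5:64924679-64933563, *Tlr6* at chr5:64952031-64960097 and *Tlr7* and *Tlr8* at chrX:167304929-167330558 and chrX:167242696-167264329, all on the minus strand. *Tlr4* is at chr4:66827584-66930284, *Tlr5* at chr1:182954788-182976044, *Tlr9* at chr9:106222598-106226883, *Tlr13* at chrX:106143204-106160493 and *Unc93b1* at chr19:3935186-3949340, all on the plus strand.

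Inferred depth was 9522376 to 19760126 reads per library. *Notch2*, the targeted gene, was lower in N2ΔMy libraries in all 3 genotype comparisons, with 7240 to 11518 normalized reads against 12656 to 20005 in wt libraries, and was still present in each. *Xist* was at 4699 or above in every library and the Y-linked genes *Ddx3y*, *Eif2s3y*, *Kdm5d* and *Uty* at 4 or below, so the X-linked receptor genes *Tlr7*, *Tlr8* and *Tlr13* were compared between libraries of one sex. The summed level of 3 Ly6Chi marker genes (*Ly6c2*, *Ccr2*, *Vcan*) was 26147 to 48811 in Ly6Chi libraries and 356 to 8213 in Ly6Clo libraries. Of the B cell genes *Ms4a1* was at 3 or below, *Cd79a* at 14 or below and *Cd79b* at 53 to 151, the genes of T and NK cells were at 18 or below, and the plasmacytoid dendritic cell gene *Siglech* reached 64. Replicates 1 and 2 of each group carry library numbers of one series and replicates 3 and 4 of a second series, whose meaning the labels do not give. Bulk libraries cannot tell fewer cells with a transcript from less transcript per cell.

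Levels between genes are given per kilobase of exon. Among the 9 receptors followed, the endosomal ones were more abundant than the surface ones in Sham Ly6Chi cells. *Tlr9* did not keep that order in every IMQ group. *Tlr3*, an endosomal receptor outside the 9, was at 9.65 in wt Sham Ly6Chi cells. In wt Sham Ly6Chi cells *Tlr13* was at 994.3 ± 110.8 normalized reads per kilobase (SD, n = 4), *Tlr7* at 733.0 ± 26.8, *Tlr9* at 608.6 ± 65.1 and *Tlr8* at 379.7 ± 36.8. *Tlr2* led the surface receptors at 277.2 ± 14.4, and *Tlr6*, *Tlr1*, *Tlr4* and *Tlr5* lay between 29.8 and 73.9. *Unc93b1* was at 3859 ± 243 per kilobase, above the sum of the 9 receptors, which was 3211 ± 115. That sum was lowest in N2ΔMy IMQ Ly6Clo cells, at 2481 ± 132, and was 2918 to 3169 in the other 4 groups.

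The make-up of the receptors shifted from group to group while that sum moved less. In wt cells *Tlr13* made up 30.9% ± 2.7 of the length-scaled receptor level in Sham Ly6Chi cells, 40.2% ± 2.1 in IMQ Ly6Chi cells and 47.1% ± 2.1 in IMQ Ly6Clo cells. The share of *Tlr9* was 19.0% ± 1.9, 7.59% ± 1.67 and 2.41% ± 0.60 in the same 3 groups. In N2ΔMy IMQ Ly6Clo cells *Tlr13* made up 41.9% ± 2.3, *Tlr7* 20.2% ± 2.7 and *Tlr9* 5.35% ± 1.47, whereas *Tlr7* made up 27.4% ± 2.2 in wt IMQ Ly6Clo cells. These shares describe the groups and were not tested. Shares of one sum are tied, so a fall of *Tlr9* raises the others. The *Tlr13* level itself was not called for IMQ over Sham in Ly6Chi cells. Its log2 fold change was 0.28 in wt cells (adjusted p = 0.109 by limma) and 0.22 in N2ΔMy cells (adjusted p = 0.303 by limma).

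**Figure D1:**
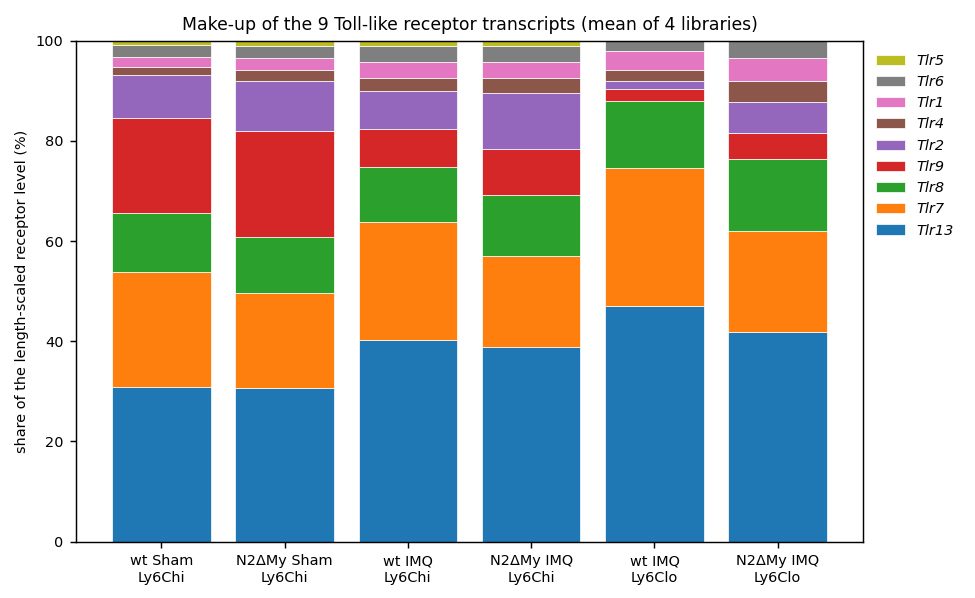
Share of each receptor in the summed length-scaled level of the 9 Toll-like receptor transcripts, as the mean of 4 libraries for each group (x axis), in percent (y axis). The blue *Tlr13* segment grows from 30.9% in wt Sham Ly6Chi cells to 47.1% in wt IMQ Ly6Clo cells, and the red *Tlr9* segment shrinks from 19.0% to 2.41%.

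The first comparison asked how IMQ treatment of the skin changed the receptors in circulating Ly6Chi cells. *Tlr9* fell in both genotypes. Its normalized read counts in wt cells were 2441, 2076, 2034 and 1916 after Sham treatment and 879, 841, 832 and 593 after IMQ. In N2ΔMy cells they were 2595, 2605, 1874 and 2280 after Sham treatment and 903, 799 and 1124 in replicates 1 to 3 after IMQ, with replicate 4 between the first pair. Every IMQ library lay below every Sham library of its genotype. The log2 fold change was -1.44 (SE 0.13, adjusted p = 0.000108 by limma) in wt cells and -1.33 (SE 0.13, adjusted p = 0.000235 by limma) in N2ΔMy cells, on the log2(value + 1) scale. Within the first and second library series it was -1.39 and -1.49 in wt cells and -1.61 and -1.04 in N2ΔMy cells. The effect of IMQ on *Tlr9* differed between the genotypes by 0.11 on the log2 scale, with a 95% interval of -0.31 to 0.53, and the difference was not called (adjusted p = 1 by limma).

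*Tlr1*, the partner of TLR2 for lipoproteins with more acyl chains, rose in wt cells. It was at 226, 193, 196 and 238 after Sham treatment and at 338, 395, 278 and 327 after IMQ, and the ranges did not overlap. The log2 fold change was 0.64 (SE 0.14, adjusted p = 0.0123 by limma), and 0.80 and 0.48 within the first and second library series. It was under the fold minimum without wt Sham replicate 2 (0.60, adjusted p = 0.0377 by limma) or without wt IMQ Ly6Chi replicate 2 (0.56, adjusted p = 0.0458 by limma). In N2ΔMy cells *Tlr1* was at 219, 255, 237 and 249 after Sham treatment and at 247, 255, 375 and 332 after IMQ, which did overlap, with a log2 fold change of 0.31 (SE 0.16, adjusted p = 0.242 by limma). The difference between the genotypes was -0.33, with a 95% interval of -0.77 to 0.11.

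A pair of wt differences passed the adjusted p and missed the fold minimum of 0.6. *Tlr4* was at 269, 268, 293 and 303 after Sham treatment and at 414, 374, 441 and 467 after IMQ, with no overlap and a log2 fold change of 0.58 (adjusted p = 0.00667 by limma). *Unc93b1* was at 11692, 11112, 10028 and 11017 after Sham treatment and at 8639, 9123, 7866 and 7886 after IMQ, also with no overlap, at -0.39 (adjusted p = 0.0112 by limma). In N2ΔMy cells the same genes were at 0.30 (adjusted p = 0.201 by limma) and -0.27 (adjusted p = 0.117 by limma).

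*Tlr7*, the receptor of the drug, was at 2879, 3032, 3126 and 2932 in wt Sham cells and at 2320, 2978, 2997 and 3349 in wt IMQ cells. The IMQ libraries spanned the Sham libraries, and the log2 fold change was -0.05 with a 95% interval of -0.29 to 0.18. In N2ΔMy cells it was -0.18, with an interval of -0.39 to 0.02. *Tlr8*, the neighbour of *Tlr7* on chromosome X at a distance of 40.6 kb, was at -0.19 in wt cells and at 0.00 in N2ΔMy cells, and was not called in either.

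Of the 10 genes, 1 was called higher and 1 lower in wt cells, where 4.43% of all tested genes were called higher and 5.07% lower, and 7 of the 10 had an unadjusted p under 0.05, beside 29.4% of all tested genes. In N2ΔMy cells 0 were called higher and 1 lower, against 4.15% and 4.55% of all tested genes, and 3 of the 10 had an unadjusted p under 0.05, beside 27.1% of all tested genes. The median log2 fold change of the 10 genes was 0.06 in wt and 0.02 in N2ΔMy cells, beside 0.01 for all genes tested in both. For the difference of the IMQ effect between genotypes, 0% of the tested genes were called in either direction by limma, and 1 of the 10 genes, *Tlr2*, had an unadjusted p under 0.05, beside 1.58% of all tested genes.

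The other Toll-like receptor genes were scarce. *Tlr11*, a receptor for profilin, and *Tlr3*, the endosomal receptor for paired RNA strands, reached the minimum of 50 in Sham Ly6Chi libraries alone, so their levels under IMQ are given as a description. *Tlr11* had a mean of 61.2 after Sham treatment and 17.8 after IMQ in wt cells, and of 73.8 and 15 in N2ΔMy cells. *Tlr3* had means of 50.2 and 27 in wt cells and of 64.8 and 22.2 in N2ΔMy cells. *Tlr12* was at 19 or below in every library. Subset markers and markers of other cells moved with these results. *Vcan* rose in both genotypes (1.84 and 2.09), *Spn* rose in wt cells (0.78), and *Cx3cr1* fell in both (-0.67 and -0.67). Among 4 genes of conventional dendritic cells (*Flt3*, *Zbtb46*, *Xcr1*, *Clec9a*), *Flt3* and *Clec9a* fell in both genotypes, and the summed level of the 4 was 531 to 1009 in Sham Ly6Chi libraries and 267 to 485 in IMQ Ly6Chi libraries. The summed level of 6 neutrophil genes was 0 to 12 in Sham and 915 to 5198 in IMQ Ly6Chi libraries through *S100a8* and *S100a9*, while *Ly6g*, *Camp*, *Ngp* and *Ltf* were at 8 or below in these libraries. *Ngp* and *Ltf* had means of 4.25 and 4 in wt and 4.5 and 4.5 in N2ΔMy IMQ cells and of 0.25 at most in Sham cells, and reached 43 and 53 in Ly6Clo libraries. Plasmacytoid dendritic cells and B cells are known for *Tlr9*. Of 3 genes of the former, *Siglech* and *Ccr9* were at 64 or below and *Tcf4* at 950 to 1917, with 0 of the 2 tested (*Siglech* and *Tcf4*) called under IMQ, and their sum was 1486 to 1929 in Sham and 960 to 1497 in IMQ Ly6Chi libraries. Of 3 B cell genes *Ms4a1* and *Cd79a* were at 14 or below and *Cd79b* was at 53 to 151 over all libraries, and *Cd79b* was at -0.06 (wt) and -0.02 (N2ΔMy) under IMQ, with no call. The macrophage genes *Adgre1* and *Mertk* rose under IMQ in N2ΔMy cells (0.66 and 1.20), and so did the platelet gene *Ppbp*, from a mean of 2 to 17.5 (2.79), with 0 of 4 macrophage and 0 of 3 tested platelet genes called in wt cells, where *Ppbp* was at 1.59 (adjusted p = 0.0519, with the block 0.0328 by limma). The part of such cells in the changes of the receptors was not tested.

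**Figure D2:**
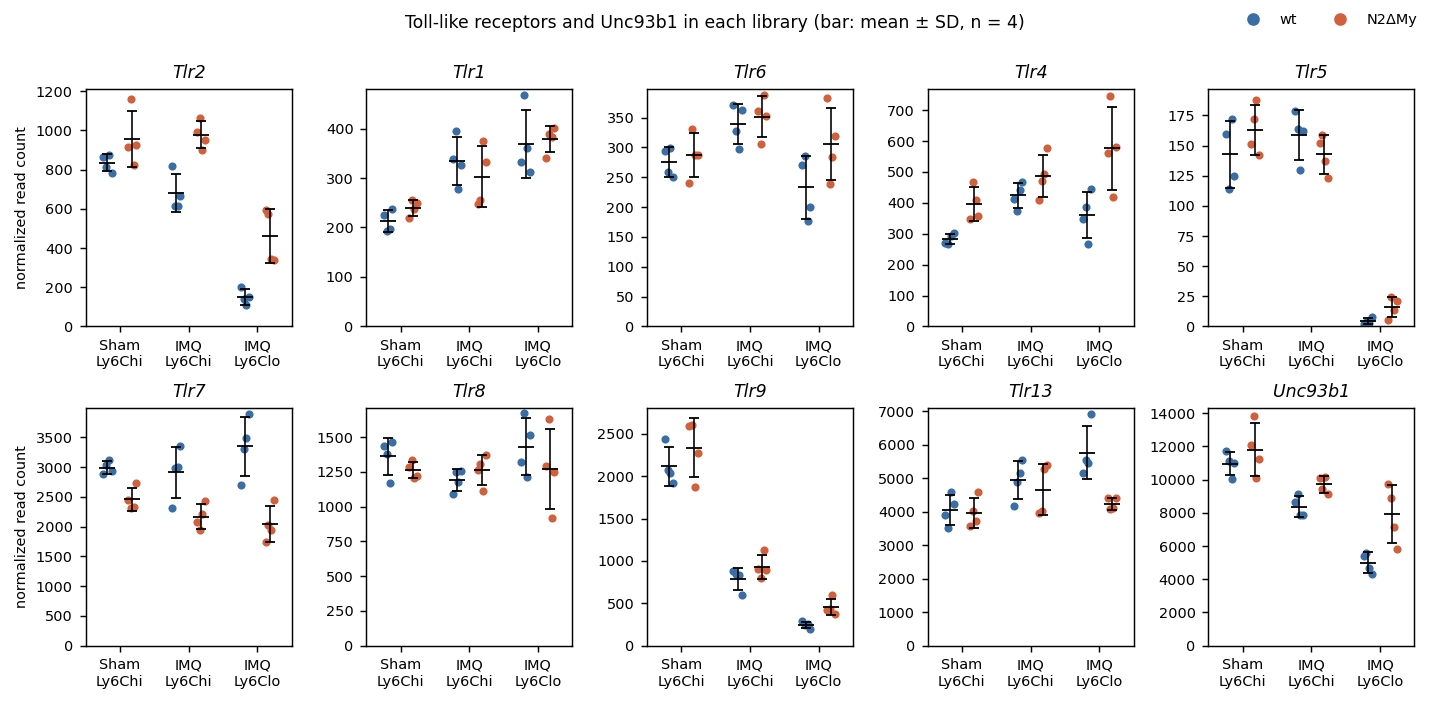
Normalized read count (y axis, linear, from 0) of each of the 10 genes in the 24 libraries, for wt (blue) and N2ΔMy (orange) in the 3 settings on the x axis, with the mean and SD of 4 libraries in black. *Tlr9* steps down from 1874 to 2605 in Sham Ly6Chi libraries to 198 to 599 in IMQ Ly6Clo libraries, and *Tlr5* is at 24 or below in all Ly6Clo libraries.

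The second comparison set Ly6Clo against Ly6Chi cells of IMQ-treated mice. *Tlr5*, *Tlr2* and *Tlr9* were lower in Ly6Clo cells of both genotypes, and *Unc93b1* in those of wt mice. For *Tlr5*, which reached the minimum set for testing in Ly6Chi libraries alone, this is a description. *Tlr5*, the flagellin receptor, was at 179, 164, 130 and 162 in wt Ly6Chi cells and at 2, 4, 3 and 8 in wt Ly6Clo cells. In N2ΔMy mice it was at 152, 159, 137 and 123 in Ly6Chi cells and at 5, 24, 14 and 21 in Ly6Clo cells. The subsets stood far apart in both genotypes, with log2 fold changes of -5.04 (SE 0.39) and -3.26 (SE 0.42). Ly6Clo values this low are compressed by the pseudocount of 1.

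*Tlr2* was at 820, 613, 615 and 667 in wt Ly6Chi cells and at 202, 140, 108 and 151 in wt Ly6Clo cells. In N2ΔMy mice it was at 992, 1066, 902 and 953 in Ly6Chi cells and at 592, 573, 344 and 341 in Ly6Clo cells. The subsets did not overlap in either genotype, and the Ly6Clo level was 0.219 times the Ly6Chi level in wt mice (log2 fold change -2.19, SE 0.19, adjusted p = 8.5e-06 by limma) and 0.458 times in N2ΔMy mice (-1.13, SE 0.19, adjusted p = 0.00138 by limma).

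*Tlr9* was also lower in Ly6Clo than in Ly6Chi cells. It was at 289, 240, 255 and 198 in wt Ly6Clo cells and at 424, 429, 599 and 376 in N2ΔMy Ly6Clo cells. The log2 fold change against Ly6Chi cells was -1.67 (SE 0.16, adjusted p = 1.9e-05 by limma) in wt and -1.03 (SE 0.16, adjusted p = 0.000737 by limma) in N2ΔMy mice. *Unc93b1* was at 5427, 5609, 4672 and 4306 in wt Ly6Clo cells, below all wt Ly6Chi libraries, with a log2 fold change of -0.75 (SE 0.11, adjusted p = 0.000292 by limma). In N2ΔMy Ly6Clo cells it was at 9731, 8893, 7145 and 5838, against 10103, 9445, 10152 and 9154 in Ly6Chi cells, which overlapped (-0.32, SE 0.15, adjusted p = 0.138 by limma).

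The other endosomal receptors stayed under the fold minimum between the subsets. In wt mice the log2 fold changes of *Tlr7*, *Tlr8* and *Tlr13* were 0.20, 0.25 and 0.22, and in N2ΔMy mice -0.09, -0.02 and -0.12, and none was called. The widest 95% interval of the 6 ran from -0.36 to 0.33, and those of *Tlr7* and *Tlr8* in wt mice reached 0.50. With the replicate block the adjusted p in wt mice was 0.0161 for *Tlr7*, 0.0151 for *Tlr8* and 0.016 for *Tlr13* by limma. Their fold changes were still under the minimum. *Tlr6*, the partner of TLR2 for lipoproteins with fewer acyl chains, was at -0.57 in wt mice (adjusted p = 0.0261 by limma), just under the fold minimum. *Tlr1* and *Tlr6* lie 18.5 kb apart on chromosome 5 and share 10.3% and 9.25% of their stretches of 75 bases, so reads from those stretches cannot be assigned to one of them. No other pair of the 10 genes shares a stretch of that length.

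Of the 10 genes, 0 were called higher and 4 lower in wt Ly6Clo cells, where 11.9% of all tested genes were called higher and 12.7% lower. In N2ΔMy mice 0 were called higher and 3 lower, against 9.01% and 8.38% of all tested genes. Both counts of lower genes, and the counts and medians below, include *Tlr5*, which passed the minimum of 50 through Ly6Chi libraries alone. An unadjusted p under 0.05 was found for 6 of the 10 in wt mice, beside 44.7% of all tested genes, and for 3 of the 10 in N2ΔMy mice, beside 37.1%. The medians of the 10 log2 fold changes were -0.41 and -0.17, beside -0.01 for all genes tested in both genotypes. Markers of other cells differed between the subsets too. In N2ΔMy mice the macrophage genes *Adgre1* and *Maf* and the conventional dendritic cell gene *Clec9a* were higher in Ly6Clo cells. The macrophage genes *Mertk* and *C1qa* (means of 33.2 and 4.75 in Ly6Chi, 250.5 and 249.8 in Ly6Clo cells), the dendritic cell gene *Zbtb46* (7 and 176.5) and the plasmacytoid dendritic cell gene *Siglech* (2.25 and 29.5) reached the minimum of 50 in Ly6Clo libraries alone, and their means are a description. In wt mice *Adgre1* was higher, *Maf* and *Flt3* were lower, and *Zbtb46* had means of 11 in Ly6Chi and 59.8 in Ly6Clo cells. *S100a8* and *S100a9*, of 3 tested neutrophil genes, were lower in Ly6Clo cells of both genotypes. Of the other Toll-like receptor genes, *Tlr11* had means of 17.8 in wt Ly6Chi and 2 in wt Ly6Clo cells (-2.73). Both groups lay under the minimum of 50, so this is a description. *Tlr3* was not called. The part of such cells in the subset differences of the receptors was not tested. The comparisons with Sham and with Ly6Clo cells share the IMQ Ly6Chi libraries, so the order Sham Ly6Chi, IMQ Ly6Chi, IMQ Ly6Clo is not 2 independent steps.

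The promoters of *Tlr9*, *Tlr2* and *Tlr5* are shown because these 3 genes share a lower level in Ly6Clo cells of both genotypes. For *Tlr5* that difference is a description. Of the 3, only *Tlr9* was called under IMQ. The 250 bases before the RefSeq start are given 5′ to 3′ on the strand of the gene in GRCm38.p6, at chr9:106222348-106222597 (plus strand) for *Tlr9*, chr3:83841609-83841858 (minus strand) for *Tlr2* and chr1:182954538-182954787 (plus strand) for *Tlr5*. Capitals mark matches to any of 6 motifs searched on both strands.
Tlr9: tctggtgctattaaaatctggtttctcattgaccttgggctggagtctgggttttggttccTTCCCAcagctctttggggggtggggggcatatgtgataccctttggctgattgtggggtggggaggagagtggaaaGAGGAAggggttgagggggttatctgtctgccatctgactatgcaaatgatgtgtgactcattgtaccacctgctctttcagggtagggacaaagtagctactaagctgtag
Tlr2: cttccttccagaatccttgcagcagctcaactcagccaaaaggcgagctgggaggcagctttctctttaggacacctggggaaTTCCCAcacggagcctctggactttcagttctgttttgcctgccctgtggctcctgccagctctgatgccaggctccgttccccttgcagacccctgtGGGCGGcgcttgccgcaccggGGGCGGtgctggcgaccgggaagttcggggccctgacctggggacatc
Tlr5: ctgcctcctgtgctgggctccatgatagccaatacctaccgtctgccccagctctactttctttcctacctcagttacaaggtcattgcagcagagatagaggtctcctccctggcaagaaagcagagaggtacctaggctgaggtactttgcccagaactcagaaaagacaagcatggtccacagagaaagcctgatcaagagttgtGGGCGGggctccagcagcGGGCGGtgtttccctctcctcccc
The *Tlr2* gene as annotated by GENCODE starts further upstream than the RefSeq start, so 159 of the 250 bases shown, both GC boxes among them, lie inside it. The windows of *Tlr9* and *Tlr5* lie outside their genes. The motifs were GAGGAA (core of the PU.1 site), TGGGAA (site of RBPJ, the DNA-binding partner of Notch), TTGCNNAA (C/EBP), the IRF motif (GAAA, any 2 bases, GAAA), AAAGGTCA (NR4A, the family of *Nr4a1*) and GGGCGG (GC box). *Tlr9* held 1 GAGGAA and 1 TGGGAA, *Tlr2* held 1 TGGGAA and 2 GC boxes, and *Tlr5* held 2 GC boxes. Of all 32851 promoters of that length, 23.3% held GAGGAA, 21.6% TGGGAA, 9.56% TTGCNNAA, 2.98% the IRF motif, 1.34% AAAGGTCA and 32.7% GGGCGG. The TGGGAA matches read TTCCCA on the strand shown, 189 bases before the start in *Tlr9* and 167 bases before it in *Tlr2*. Promoters of 7 of the 10 genes were in the table, and *Tlr4*, *Tlr7* and *Unc93b1* were not matched. These matches describe the letters of the window and are not shown to be bound.

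The third comparison asked how loss of *Notch2* changed the receptors, and the differences were called in Ly6Clo cells. *Tlr2*, *Tlr9* and *Unc93b1*, which were lower in wt Ly6Clo than in wt Ly6Chi cells, were higher in N2ΔMy than in wt Ly6Clo cells. *Tlr7* was lower. The subset and the genotype comparison share the 4 wt IMQ Ly6Clo libraries, so low values there move both, and the directions are not independent. With no filter on low values the 4 fold changes were the same and none was called (adjusted p of 0.0658 for *Tlr2*, 0.0945 for *Tlr9*, 0.102 for *Tlr7* and 0.249 for *Unc93b1* by limma). *Tlr2* was at 592, 573, 344 and 341 in N2ΔMy and at 202, 140, 108 and 151 in wt cells, 3.03 times the wt level with no overlap (log2 fold change 1.60, SE 0.25, adjusted p = 0.00348 by limma). The high libraries, replicates 1 and 2, belong to the first library series, where the difference was 1.79, and that in the second series was 1.42 on the log2 scale. In IMQ Ly6Chi cells *Tlr2* was at 992, 1066, 902 and 953 in N2ΔMy and at 820, 613, 615 and 667 in wt mice, also with no overlap. That difference was not called (0.53, 95% interval 0.29 to 0.78, adjusted p = 0.358, with the replicate block 0.0202 by limma, under the fold minimum).

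*Tlr9* was at 424, 429, 599 and 376 in N2ΔMy and at 289, 240, 255 and 198 in wt cells, again with no overlap (0.88, SE 0.17, adjusted p = 0.0133 by limma). Within the library series it was 0.69 (adjusted p = 0.0671 by limma) and 1.08 (adjusted p = 0.0937 by limma). *Unc93b1* was at 9731, 8893, 7145 and 5838 in N2ΔMy and at 5427, 5609, 4672 and 4306 in wt cells, where the lowest N2ΔMy library was just above the highest wt library (0.64, SE 0.16, adjusted p = 0.0395 by limma). The *Unc93b1* call was lost on leaving out any 1 of the 8 libraries except N2ΔMy replicate 4, with values of 0.53 to 0.70 and adjusted p of 0.0589 to 0.111 by limma in the 7 fits that lost it.

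*Tlr7* was at 1736, 2029, 1949 and 2455 in N2ΔMy and at 2703, 3302, 3496 and 3887 in wt Ly6Clo cells. All N2ΔMy libraries lay below all wt libraries, at 0.611 times the wt level (log2 fold change -0.71, SE 0.13, adjusted p = 0.0108 by limma), and the value was -0.67 and -0.75 within the library series. In Ly6Chi cells the N2ΔMy level was also the lower one, without a call. After IMQ *Tlr7* was at 2083, 1949, 2204 and 2434 in N2ΔMy and at 2320, 2978, 2997 and 3349 in wt cells, which overlapped (-0.42, 95% interval -0.68 to -0.15, adjusted p = 0.59 by limma). Within each replicate number the N2ΔMy library was the lower one, and with the replicate block the adjusted p was 0.0315 by limma, still under the fold minimum. After Sham treatment it was at 2453, 2317, 2324 and 2731 in N2ΔMy and at 2879, 3032, 3126 and 2932 in wt cells, which did not overlap (-0.29, 95% interval -0.45 to -0.13, adjusted p = 0.879 by limma). The genotype difference was not shown to be larger in Ly6Clo than in IMQ Ly6Chi cells (-0.29, 95% interval -0.69 to 0.10, adjusted p = 0.865 by limma).

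The neighbour of *Tlr7*, *Tlr8*, was not called. It was at 1289, 1628, 919 and 1249 in N2ΔMy and at 1317, 1672, 1213 and 1517 in wt Ly6Clo cells, which overlapped (-0.19, 95% interval -0.56 to 0.18, adjusted p = 0.617 by limma). *Tlr13*, also on chromosome X, was at 4406, 4079, 4102 and 4396 in N2ΔMy and at 5144, 5533, 5457 and 6933 in wt Ly6Clo cells. Those ranges did not overlap, and the difference passed the adjusted p but not the fold minimum (-0.43, SE 0.10, adjusted p = 0.0329 by limma).

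*Tlr4* was at 561, 746, 420 and 580 in N2ΔMy and at 348, 385, 268 and 445 in wt Ly6Clo cells, with overlap, and at 0.67 (SE 0.20, adjusted p = 0.0807 by limma) it was not called. The fit with a replicate block called it (0.67, adjusted p = 0.00261 by limma). *Tlr5* was at 5, 24, 14 and 21 in N2ΔMy and at 2, 4, 3 and 8 in wt Ly6Clo cells, and the log2 fold change of 1.63 (SE 0.63) was not called (adjusted p = 0.183 by limma). *Tlr1* and *Tlr6* were at 0.05 and 0.40, and neither was called.

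**Figure D3:**
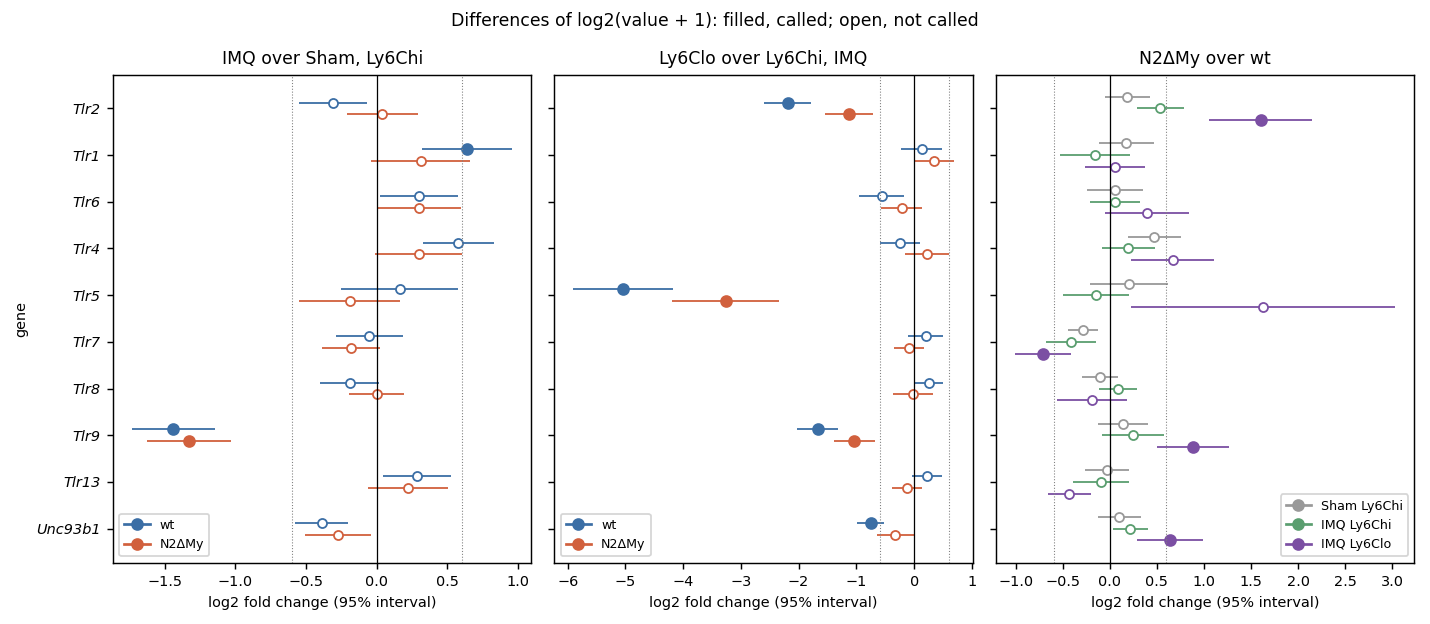
Log2 fold change of each gene with its 95% interval (x axis) for IMQ over Sham in Ly6Chi cells, Ly6Clo over Ly6Chi cells after IMQ, and N2ΔMy over wt in the 3 settings. Filled points were called and dotted lines mark the fold minimum of 0.6. For *Tlr5* the difference between the subsets is a description. *Tlr9* in both genotypes and *Tlr1* in wt cells are filled on the left, *Tlr2*, *Tlr5* and *Tlr9* in both genotypes and *Unc93b1* in wt mice in the middle, and *Tlr2*, *Tlr7*, *Tlr9* and *Unc93b1* for Ly6Clo cells on the right.

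In Ly6Clo cells 3 of the 10 genes were called higher and 1 lower in N2ΔMy mice, against 3.12% and 1.67% of all tested genes. Of the 10 genes 7 had an unadjusted p under 0.05, beside 19.5% of all tested genes, and the median log2 fold change was 0.52, beside 0.00 for all genes tested. In IMQ Ly6Chi cells limma called 0 of the 10 genes, against 0.0178% of all tested genes called higher and 0.0089% lower, and 3 (*Tlr2*, *Tlr7* and *Unc93b1*) had an unadjusted p under 0.05, beside 6.05% of all tested genes. In Sham Ly6Chi cells it called 0, against 0.0089% in each direction, and 2 (*Tlr4* and *Tlr7*) had an unadjusted p under 0.05, beside 5.21% of all tested genes.

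Whether the genotype difference itself differed between Ly6Clo and Ly6Chi cells after IMQ was tested as an interaction. Limma called 0 of the 10 genes, against 0.971% of all tested genes called higher and 0.0623% lower, and 4 had an unadjusted p under 0.05, beside 8.33% of all tested genes. The largest were *Tlr5* at 1.78 (SE 0.58, adjusted p = 0.233 by limma), *Tlr2* at 1.07 (SE 0.28, adjusted p = 0.0972 by limma) and *Tlr9* at 0.64 (SE 0.23, adjusted p = 0.349 by limma). With the replicate block *Tlr2* (adjusted p = 0.00523 by limma) and *Tlr9* (adjusted p = 0.0445 by limma) were called. The interval for *Tlr2* without the block was 0.47 to 1.66.

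The markers of the subsets and of other cells also differed between the genotypes in Ly6Clo libraries. Of the 3 Ly6Chi genes, *Ccr2* and *Vcan* were higher in N2ΔMy Ly6Clo cells (3.44 and 3.75), and *Ly6c2* was called only with the replicate block (1.47, adjusted p = 0.0076 by limma). The summed level of the 3 was 5733 to 8213 there and 356 to 1236 in wt Ly6Clo cells. Of 6 Ly6Clo genes, *Ace*, *Nr4a1* and *Spn* were lower (-1.19, -0.86 and -0.63), *Treml4* (-0.92) was called only with the replicate block (adjusted p = 9.96e-05 by limma), *Pou2f2* was not called, and *Cx3cr1* lay the other way at 0.52, under the fold minimum (adjusted p = 0.0173 by limma). The 6 had a sum of 55028 to 73220 against 99640 to 120976. Of 4 macrophage genes, *Maf* was higher (2.54), *C1qa* and *Mertk*, which reached the minimum of 50 in N2ΔMy Ly6Clo libraries alone, had means of 249.8 and 250.5 against 14.2 and 13.5, and *Adgre1* was at 0.58 (adjusted p = 0.126 by limma), with a sum of 9395 to 13644 against 4606 to 6579. The conventional dendritic cell genes summed to 205 to 1450 in N2ΔMy and 80 to 485 in wt Ly6Clo libraries, and 0 of the 3 that were tested were called, while *Flt3* and *Clec9a* were with the replicate block (1.91, adjusted p = 0.00242, and 1.34, adjusted p = 0.0494 by limma). The part of such cells in the receptor differences was not tested.

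The place of N2ΔMy Ly6Clo cells between the wt subsets was not the same for each gene. As a description on the linear scale, in which the wt Ly6Clo libraries are also the starting point, their mean lay 85.9% of the way from wt Ly6Clo to wt Ly6Chi cells for *Unc93b1*, 59.1% for *Tlr2*, 39.1% for *Tlr9* and 7.61% for *Tlr5*. Single libraries spanned 24.7% to 140.1% for *Unc93b1*, 36.1% to 83.6% for *Tlr2* and 24.1% to 65.4% for *Tlr9*. The 3 Ly6Chi markers lay at 2.16% (*Ly6c2*), 8.48% (*Vcan*) and 40.4% (*Ccr2*). *Tlr7* has no such place, since its N2ΔMy Ly6Clo mean of 2042 was below both wt IMQ subsets, at 2911 and 3347.

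*Tlr7* and *Tlr9* compete for UNC93B1 in cells that hold both receptors, so their levels are given as a ratio per library, as a description. Length-scaled *Tlr7* was 1.00 to 1.31 times *Tlr9* in wt Sham Ly6Chi cells, 2.25 to 4.81 times in wt IMQ Ly6Chi cells and 7.97 to 16.7 times in wt IMQ Ly6Clo cells. In N2ΔMy mice the ratio was 0.758 to 1.06, 1.67 to 2.32 and 2.77 to 5.56 in the same 3 settings. The genotypes did not overlap in Ly6Clo cells and overlapped in both Ly6Chi settings. Within each replicate number the N2ΔMy ratio was the lower one in both Ly6Chi settings as well.

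**Figure D4:**
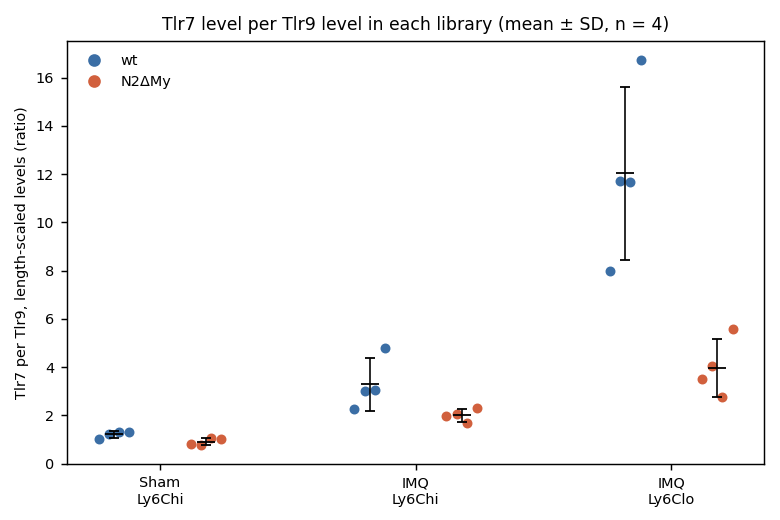
Ratio of the length-scaled *Tlr7* to the length-scaled *Tlr9* level (y axis, linear, from 0) in each library of wt (blue) and N2ΔMy (orange) mice, with the mean and SD of 4 libraries in black. The ratio lies at 7.97 to 16.7 in wt Ly6Clo libraries and at 2.77 to 5.56 in N2ΔMy Ly6Clo libraries.

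Ordered by level over the 6 groups, *Tlr9* went from N2ΔMy and wt Sham Ly6Chi cells through N2ΔMy and wt IMQ Ly6Chi cells to N2ΔMy and wt Ly6Clo cells. The ranges of neighbours in that order were apart between the Sham and IMQ Ly6Chi groups and between the Ly6Clo groups, and overlapped elsewhere. *Tlr2* was highest in N2ΔMy IMQ Ly6Chi cells, the 4 Ly6Chi groups overlapped from neighbour to neighbour though not between the IMQ genotypes, and both Ly6Clo groups stood apart below them and from each other. *Unc93b1* had gaps between the IMQ Ly6Chi groups (9154 to 10152 in N2ΔMy and 7866 to 9123 in wt cells) and between the Ly6Clo groups. *Tlr5* showed 1 gap, between the 4 Ly6Chi groups and the Ly6Clo groups. For *Tlr1*, *Tlr4*, *Tlr6*, *Tlr7*, *Tlr8* and *Tlr13* every group overlapped its neighbour in the order. In that of *Tlr7* the 3 wt groups held the upper places and the 3 N2ΔMy groups the lower ones.

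The genes most like each receptor were sought for the 4 genes whose group means spanned at least 1 on the log2 scale, as the smallest root mean square difference between the centred means of the 6 groups among 8375 genes. For *Tlr9* these were *Ifi204*, *Ifi203* and *Mndal* (differences of 0.10, 0.13 and 0.17 on the log2 scale), 3 members of one interferon-inducible family. *Ifi204* was at 6272 in wt Sham Ly6Chi, 2368 in wt IMQ Ly6Chi and 1073 in wt Ly6Clo cells on average. The genes of this family are alike in sequence, and how the counting split their reads is uncertain. For *Tlr2* they were *Lsr*, *Galnt9* and *Rnd3* (0.12, 0.14 and 0.15), for *Tlr5* *Amotl2*, *Papss2* and *Rem1* (0.25, 0.26 and 0.27), and for *Unc93b1* *Arap3*, *Plcb3* and *Fosl2* (0.04, 0.05 and 0.05). With 6 points per gene this likeness is a description.

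The genes that work with the receptors were counted in 4 lists. Among 6 surface co-receptors, *Cd14*, which hands lipopolysaccharide to TLR4 and its partner MD-2, was lower in wt Ly6Clo than Ly6Chi cells (-1.13, adjusted p = 0.000397 by limma) and higher in N2ΔMy than in wt Ly6Clo cells (1.42, adjusted p = 0.00127 by limma). *Ly86*, whose product binds the TLR4 relative CD180, was lower in Ly6Clo cells of both genotypes (-1.93 and -0.97) and higher in N2ΔMy Ly6Clo cells (1.03, adjusted p = 0.00676 by limma). *Cd36*, a scavenger receptor that works with TLR2, was higher in Ly6Clo cells of both genotypes (3.96 and 4.38) and higher in N2ΔMy than in wt Ly6Clo cells (1.83, adjusted p = 0.0141 by limma). *Lbp*, the lipopolysaccharide-binding protein, rose under IMQ in Ly6Chi cells of both genotypes (2.12 and 1.78). It was lower in Ly6Clo cells (-2.78 and -3.00), at 12 to 42 normalized reads in wt and 25 to 33 in N2ΔMy mice. Of the IMQ libraries, those of Ly6Chi cells alone reached the minimum set for testing, so this subset difference of *Lbp* is a description. *Cd180* was higher in wt Ly6Clo cells (0.76), and in those of N2ΔMy mice it was called only with the replicate block (0.60, adjusted p = 0.00042 by limma). *Ly96*, the gene of MD-2, was not called in any comparison. With the block, *Cd36* was also called higher in N2ΔMy than in wt IMQ Ly6Chi cells (1.41, adjusted p = 0.00481 by limma), and *Ly86* in the subset interaction (0.95, adjusted p = 0.000286 by limma).

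In all, 1 of the 6 co-receptors rose and 2 fell under IMQ in wt Ly6Chi cells (*Lbp*, *Ly86* and *Cd36*), and 2 rose and 1 fell in N2ΔMy cells (*Lbp*, *Cd14* and *Ly86*), against the 4.43% and 5.07% (wt) and 4.15% and 4.55% (N2ΔMy) of all tested genes given above. In Ly6Clo against Ly6Chi cells 2 were higher and 3 lower in wt mice, against 11.9% and 12.7% of all tested genes. In N2ΔMy mice 1 was higher and 2 were lower, against 9.01% and 8.38%. Both counts of lower genes include *Lbp*, whose subset difference is a description. In N2ΔMy against wt Ly6Clo cells 3 were higher and 0 lower, against 3.12% and 1.67%, with a median of 0.67 over the 6, beside 0.00 for all genes tested. *Cd36* varied widely between libraries, with 424 to 1761 normalized reads in wt and 1969 to 3980 in N2ΔMy Ly6Clo cells.

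Among 7 chaperones and transporters of the receptors, *Hsp90b1*, the chaperone gp96 that folds most Toll-like receptors, was lower in Ly6Clo cells of both genotypes (-1.10, adjusted p = 6.6e-05, and -0.69, adjusted p = 0.00319 by limma), from 7553 ± 1227 to 3503 ± 398 in wt mice. *Slc15a3*, an endosomal peptide transporter, was higher in Ly6Clo cells of both (0.80 and 0.69). Neither the treatment nor the genotype gave a call among the 7 by limma, with an unadjusted p under 0.05 for 1 of 7 under IMQ in each genotype (beside 29.4% of all tested genes in wt and 27.1% in N2ΔMy cells) and for 2 of 7 between genotypes in Ly6Clo cells (beside 19.5%), 1 in IMQ Ly6Chi cells (beside 6.05%) and 0 in Sham Ly6Chi cells (beside 5.21%). Among 9 endosomal proteases and nucleases, *Ctsl* rose under IMQ in both genotypes (1.13 and 1.52) and *Pld3* in wt cells (0.70), with 0.74 in N2ΔMy cells (adjusted p = 0.0512, with the block 0.0314 by limma), and both were higher in N2ΔMy than in wt Ly6Clo cells (1.26, adjusted p = 0.0432, and 0.95, adjusted p = 0.00582 by limma). *Lgmn*, the protease legumain, was higher in Ly6Clo cells of both genotypes (0.90 and 1.33), and *Ctsb* in those of wt mice (0.72), where *Pld3* was lower (-0.60). With the block *Ctsl* was also called in N2ΔMy against wt IMQ Ly6Chi cells (0.68, adjusted p = 0.021 by limma) and *Rnaset2b* in wt Ly6Clo against Ly6Chi cells (1.03, adjusted p = 0.0269 by limma), and the near-identical *Rnaset2a* makes its counts uncertain.

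Of the TIR adaptors, *Myd88*, *Tirap*, *Ticam1* and *Ticam2* were tested, and limma called 0 in each comparison. At an unadjusted p under 0.05 there were 3 between the wt subsets, where 44.7% of all tested genes had one, and 2 between the N2ΔMy subsets, where 37.1% had one, and 0 in the others. *Myd88* was at 1879 ± 387 in wt and 1853 ± 332 in N2ΔMy Ly6Clo cells, and at 2416 ± 476 and 2294 ± 254 in the IMQ Ly6Chi cells of these genotypes (SD, n = 4). *Sarm1* was at 5 or below in every library and was not tested.

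**Figure D5:**
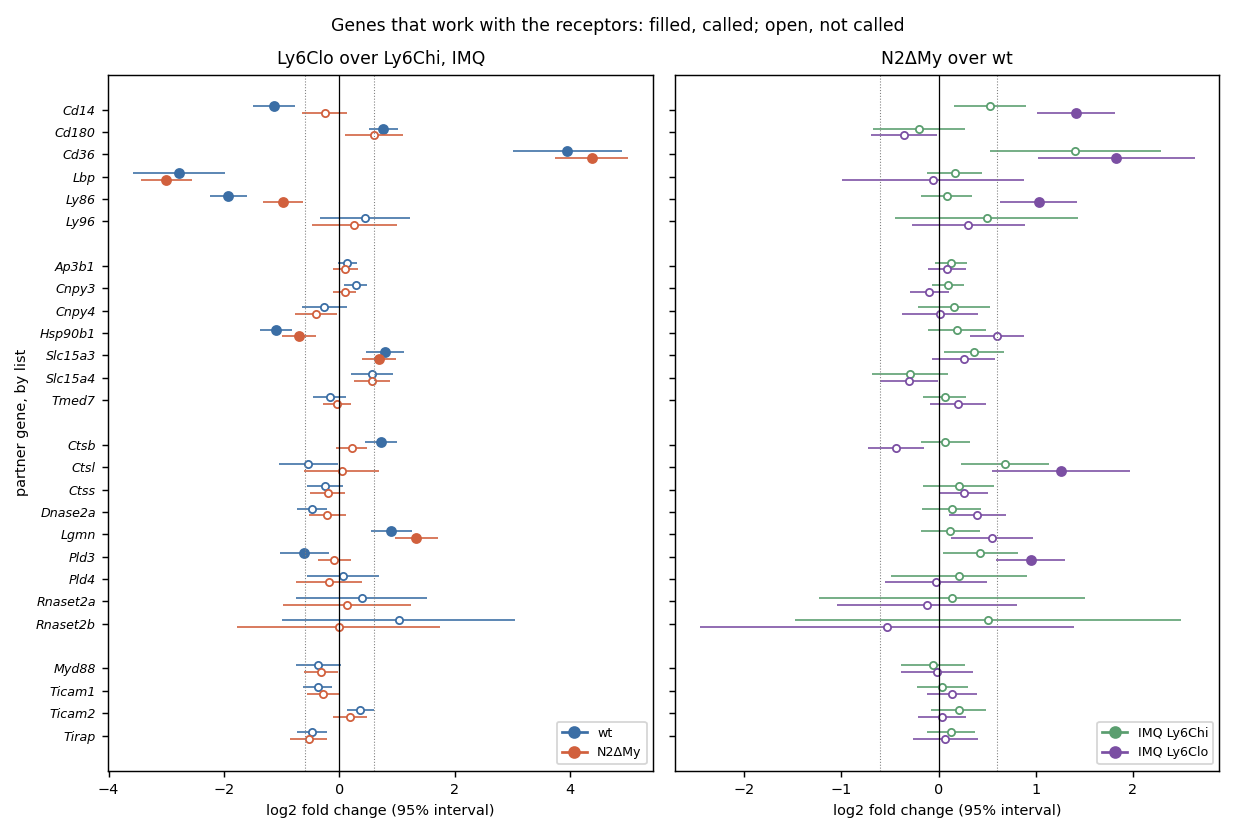
Log2 fold change with its 95% interval (x axis) of the tested co-receptors, chaperones and transporters, proteases and nucleases, and adaptors (y axis, in 4 blocks from top to bottom), for Ly6Clo over Ly6Chi cells after IMQ and for N2ΔMy over wt. Filled points were called, and dotted lines mark the fold minimum of 0.6. For *Lbp* the difference between the subsets is a description. In the right panel *Cd14*, *Cd36*, *Ly86*, *Ctsl* and *Pld3* are filled for Ly6Clo cells, and no adaptor is filled in either panel.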

How the data were processed

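RNA of sorted monocytes was made into libraries with the SMARTer Stranded Total RNA-Seq Pico kit. The authors trimmed reads (Trim Galore 0.4.4), aligned them to GRCm38.p6 with STAR 2.5.3a and counted them on GENCODE genes. The deposited score is the count normalized with DESeq2 and rounded to a whole number, so count models were not used. The authors' own comparison columns (fold changes, p-values) were not used. Depth was inferred from which whole numbers occur, tested on simulated data (largest error 0.0061%).

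Values were compared as log2(value + 1) with limma 3.58.1 in R 4.3.3 (lmFit, then eBayes with trend), each comparison on its own 8 libraries and each interaction on 16. Genes with at least 50 in at least 1 of 24 libraries were tested. Calls needed a Benjamini-Hochberg adjusted p, over all 11230 genes, no higher than 0.05 and a log2 fold change of 0.6 or more in size. On simulated data with 200 changed genes, 199 were called in N2ΔMy against wt Ly6Clo cells, and 191 in the subset interaction. The 199 were 99 of 100 at 2-fold and 100 of 100 at 4-fold. The simulated libraries were independent with 1 spread setting for all genes, and the changed genes had means of at least 100. Same-numbered libraries of the data were correlated, so these counts need not hold for them.

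Same-numbered libraries deviated from their group means together (correlations of 0.16 to 0.62 over the comparisons). The labels give the numbers but not what they mark, and within a library series the mean correlation was -0.01 to 0.24. The replicate number was therefore fitted as a block as an alternative. The labels do not say that replicates came from separate mice, so p-values measure the spread between these libraries. Groups follow the labels. The methods call the controls untreated where the labels say Sham.

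The 10 genes and the gene lists were chosen with earlier results of these data known. All 10 are named, partner genes are named where called, and the 3 nearest genes are given where group means span at least 1 (log2) and the mean is at least 100. Exon lengths came from GENCODE M21, promoters from RefSeq (GRCm38.p6). Figures were drawn with matplotlib. Intervals cover the spread between libraries. Some marker genes are not reported here.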

Additional observations from a re-analysis of the deposited data

Results flagged for a closer look

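*Tlr9* in wt IMQ Ly6Chi cells had 1 library far below the others, replicate 4 at 593 normalized reads, while the other 3 lay at 832 to 879. This was the only one of 60 sets of 4 libraries, 10 genes in 6 groups, in which the lowest or highest library stood this far off. Chance alone gives about 1 in 20, or about 3 of the 60, so 1 such set is no more than chance would give. Without that library the log2 fold change of *Tlr9* for IMQ over Sham in wt cells was -1.31 (adjusted p = 0.000147 by limma) and that for Ly6Clo over Ly6Chi cells was -1.80 (adjusted p = 1.46e-05 by limma), and both were still called.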

How the results depend on the processing

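Each of the 14 called differences of single genes kept its direction under 11 alternatives and on leaving out each library. The alternatives were of scaling, filter, pseudocount, trend, replicate block and library series. No longer called were 9 of 154 results under the alternatives and 9 of 112 without 1 library. The 14 include the *Tlr5* subset differences, which are a description. Within the second library series the number of the 10 genes called for IMQ over Sham in wt cells was 1 and for N2ΔMy over wt Ly6Clo cells 2. With no filter on low values the latter was 0 at the same fold changes, with adjusted p of 0.0658 (*Tlr2*), 0.102 (*Tlr7*), 0.0945 (*Tlr9*) and 0.249 (*Unc93b1*) by limma, and 215 genes were called in place of 537. With the replicate block 2 genes, *Tlr2* and *Tlr9*, were called in the subset interaction, and *Tlr4* was added in Ly6Clo cells (0.67). The block changed no other call among the 10 genes. Of the 7 uncalled differences followed, 12 results under the alternatives and 8 without 1 library were called. The interaction had 1 call, *Tlr2*, with the library series as a covariate or all 24 libraries in 1 fit. The cause of these changes was not tested. Leaving out 1 library gave 1 to 3 calls for IMQ over Sham in wt cells (*Tlr1* lost without wt Sham or wt IMQ Ly6Chi replicate 2), and 0 to 1 in the interaction (*Tlr2* without wt Ly6Clo replicate 1, *Tlr5* without N2ΔMy Ly6Clo replicate 1). Values near 0, as of *Tlr5* in Ly6Clo cells, rest on few reads, and 4 libraries a group leave intervals that do not show that uncalled genes did not change.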
